A study of Arabidopsis thaliana with 22 samples.

Results

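The genes described here are transient light-response genes of dark-grown Arabidopsis thaliana seedlings: transcripts that were high after 1 h of blue light and after 1 h of red light and were back near their dark level after 6 h. They were chosen from measured values. CPM is a gene's count as a share of its library's total, scaled to 1e6, and levels were compared as log2(group mean CPM + 1). A gene was kept when its level at 1 h was at least 1 log2 unit above 0 h in both colours and its level at 6 h was at most 0.5 above the 6 h dark controls in both colours. Leaving out 10 loci named in that rule, of which 4 met it, 82 of 33602 genes were members. Of the 392 genes that passed the 1 h condition, 251 were over 0.5 above dark at 6 h in both colours, and these sustained genes serve as the comparison. The blue and red values below therefore describe the choice and carry no test, and the white light libraries, which the rule did not use, carry the tests.

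RNA was sequenced from Col-0 seedlings grown in darkness for 6 days and then moved to light: 1 or 6 h of continuous blue, 1 or 6 h of red, or 6 h of white. Each colour had its own dark controls, sampled at 0 h or after 6 h more in darkness. The 11 groups (Blue, Red and White at 6 h, Blue and Red at 1 h, and for each colour 6 h dark and 0 h) held 2 libraries each. All seedlings shared the wild-type Col-0 ecotype, a medium with sucrose, cold stratification and a short white light pulse that started germination. Whole seedlings were used, so for every gene below fewer cells of a type and less RNA per cell cannot be told apart. Whether both libraries of a group came from separate cultures is not stated in the labels, so p-values measure the spread between these libraries, which may be technical. Seedlings after 1 h of white light were not analysed here.

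Totals lay between 35000731 and 138804638 counts per library. Dark libraries were sequenced 4 per pool and light libraries 2 per pool, so pool size and light cannot be told apart. PORA, the protochlorophyllide reductase that marks etiolated tissue, lay between 139 and 1194 CPM in the 12 dark libraries, and at 4.85 and 61.3 CPM in the White 6 h libraries. The summed level of 4 root markers stayed between 122 and 200 CPM in all 22 libraries. In the white light test below, all 4 were called higher in White 6 h than in White 6 h dark (median log2 change 0.87). Of 3 guard cell markers, 2 were called lower. Together these 3 genes had 10.6 and 11.9 CPM in White 6 h, against 30.9 and 32.6 CPM in White 6 h dark. At 1 h of blue light they had 19.6 and 15.8 CPM, against 38.0 and 29.4 CPM at 0 h. In red light the 1 h and 0 h libraries overlapped. The part of tissue composition was not tested.

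Seedlings that reach light switch from elongation in darkness to leaf opening and greening. Phytochromes perceive red light and cryptochromes blue light, and within the first hour both change the transcription of regulators, among them clock-related MYB factors and B-box zinc finger proteins. Abscisic acid is the hormone of drought and seed dormancy. Its receptors inhibit clade A protein phosphatases, which frees SnRK2 kinases to activate bZIP factors that bind promoter elements with an ACGT core. Late embryogenesis abundant (LEA) proteins protect drying cells, and 12S globulins, 2S albumins and oleosins are the protein and oil-body reserves of the seed, which are used up after germination.

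All 82 members had an entry in the TAIR10.1 RefSeq annotation. Of these, 80 are protein coding, 1 is the microRNA locus MIR824 (AT4G24415) and 1, AT3G17110, is a transcribed pseudogene. They lie on all chromosomes, with 18, 9, 19, 14 and 22 members on chromosomes 1 to 5. A known symbol was listed for 51, and 31 carry the locus tag alone. By role, and sorted after their values were seen, 10 belong to abscisic acid and dehydration responses, 4 encode LEA proteins, 7 are clock or B-box factors, 9 encode seed storage or oil-body proteins, and 52 have other or unknown functions.

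The 250 bases before the annotated gene start were searched for 7 motifs on both strands in all 32834 genes that could be placed. The abscisic acid response element, searched as ACGTGGC and ACGTGTC, was in 29 of 82 member promoters (35.4%), in 37 of the 251 sustained genes (14.7%) and in 5.76% of all promoters. The G-box, CACGTG, was in 29.3% of members, 15.5% of sustained genes and 5.83% of all promoters. Both motifs share the core ACGTG, and in 16 of the 82 member promoters an abscisic acid response element overlapped a G-box, as it did in 918 of all 32834. The RY element of seed genes, searched as CATGCA, was in 8 of the 9 storage and oil-body promoters (CRU2 was the one without a match) and in 8.83% of all promoters. Among the 68 members that were high in both 1 h libraries of both colours, none of which is a storage or oil-body gene, 7.35% held CATGCA. The dehydration response element core CCGAC was in 18.3% of members and 12.2% of all promoters, and in the promoters of all 4 LEA members, which also all held the abscisic acid response element. The evening element AAAATATCT was in 2.44% of members and 2.22% of all promoters, and in none of the 7 clock and B-box members. The W-box, searched as TTGACC and TTGACT, was in 23.2% of members and 27.99% of all promoters, and the I-box GATAAG in 4.88% and 12.6%. A match describes letters in a window and is not a bound site, and these shares carry no test.

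Promoters of 6 members show these matches, chosen after the search as examples from 4 of the role groups. The abscisic acid response element was in 3 of the 10 abscisic acid and dehydration members, AFP1, GBF3 and HAB1. Of the 7 clock and B-box members 1 held it, RVE2, and of the 52 members with other or unknown functions 19 did. AFP1, GBF3 and RVE2 thus do not stand for most of their groups. Of the 6 sequences, the first 4 have the abscisic acid response element in capitals, and LEA4-5 and RVE2 also the core CCGAC, on either strand. The last 2 have the RY element in capitals. CRU3 and OLEO1 also hold the abscisic acid response element, as 2 of the 9 storage and oil-body members, and there it is left in lower case. Sequences are from TAIR10.1 and read 5′ to 3′ toward the gene, ending at the base before its start. AFP1 is at chr1:26038655-26038904 (plus strand), GBF3 at chr2:18999930-19000179 (plus), LEA4-5 at chr5:2090431-2090680 (minus), RVE2 at chr5:14753089-14753338 (minus), CRU3 at chr4:14087306-14087555 (plus) and OLEO1 at chr4:12900180-12900429 (plus).
AFP1: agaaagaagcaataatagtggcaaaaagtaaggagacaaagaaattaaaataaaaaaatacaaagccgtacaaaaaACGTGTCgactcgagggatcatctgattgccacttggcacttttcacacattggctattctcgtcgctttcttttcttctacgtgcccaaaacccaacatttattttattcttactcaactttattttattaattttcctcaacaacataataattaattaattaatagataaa
GBF3: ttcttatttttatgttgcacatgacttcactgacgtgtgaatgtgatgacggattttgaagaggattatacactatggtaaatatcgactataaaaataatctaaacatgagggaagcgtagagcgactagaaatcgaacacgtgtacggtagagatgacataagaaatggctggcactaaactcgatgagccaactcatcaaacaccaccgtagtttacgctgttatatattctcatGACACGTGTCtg
LEA4-5: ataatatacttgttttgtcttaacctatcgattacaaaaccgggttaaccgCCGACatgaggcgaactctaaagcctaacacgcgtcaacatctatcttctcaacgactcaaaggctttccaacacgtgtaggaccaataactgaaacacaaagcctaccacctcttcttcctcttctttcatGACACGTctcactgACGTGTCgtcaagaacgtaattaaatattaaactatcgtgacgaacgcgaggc
RVE2: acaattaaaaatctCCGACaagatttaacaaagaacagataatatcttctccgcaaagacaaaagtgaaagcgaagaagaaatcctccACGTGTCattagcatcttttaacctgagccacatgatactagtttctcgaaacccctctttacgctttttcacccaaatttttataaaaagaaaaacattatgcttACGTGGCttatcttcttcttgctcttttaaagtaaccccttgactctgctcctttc
CRU3: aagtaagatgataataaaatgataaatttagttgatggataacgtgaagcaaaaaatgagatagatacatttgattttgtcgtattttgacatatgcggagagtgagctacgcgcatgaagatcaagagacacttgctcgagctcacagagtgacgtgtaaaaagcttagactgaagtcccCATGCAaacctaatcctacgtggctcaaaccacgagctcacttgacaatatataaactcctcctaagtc
OLEO1: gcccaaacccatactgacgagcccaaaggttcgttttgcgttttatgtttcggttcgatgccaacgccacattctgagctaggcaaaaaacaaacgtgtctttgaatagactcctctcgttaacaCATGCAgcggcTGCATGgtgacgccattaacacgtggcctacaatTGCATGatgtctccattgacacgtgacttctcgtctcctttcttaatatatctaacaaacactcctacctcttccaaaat

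AFP1 has 1 match of the abscisic acid response element, and GBF3 has 2 that overlap as a palindrome just before the start. LEA4-5 and RVE2 each have 2 matches and 1 CCGAC, CRU3 has 1 RY element and OLEO1 has 3.

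**Figure D1:**
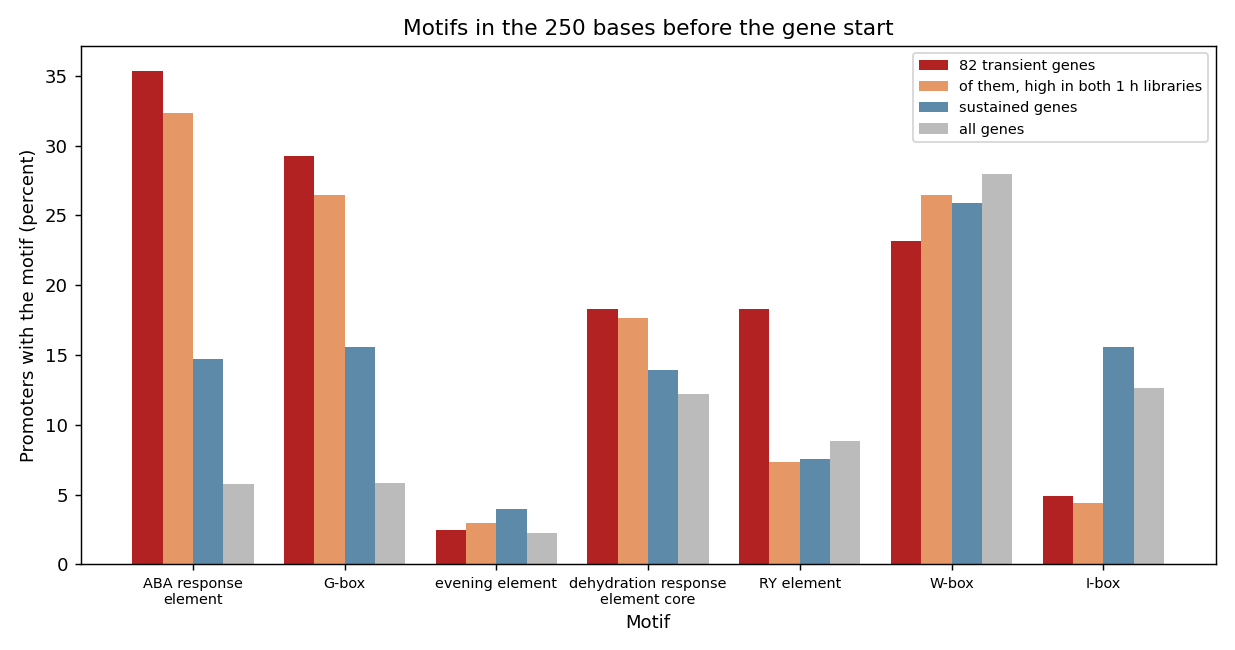
Share of promoters (percent, 250 bases before the gene start) that hold each of 7 motifs, as bars for the 82 transient genes, the 68 of them that were high in both 1 h libraries of both colours, the 251 sustained genes and all 32834 genes. The abscisic acid response element stands at 35.4% of the transient genes and 5.76% of all genes, and the I-box at 4.88% and 12.6%.

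At 1 h the members were a median of 1.60 log2 units above 0 h in blue light (lowest 1.02, highest 3.24) and 1.41 in red light (1.01 to 4.93). The difference was larger in blue light for 53 members and larger in red light for 29. These are the values that chose the genes. Both 1 h libraries lay above both 0 h libraries for 69 members in blue light, where 14.2% of all genes did, for 76 in red light (14.6% of all genes), and for 68 in both colours (6.83% of all genes), and nothing is read from these shares because the rule used the same libraries. The other 14 members lacked this in 1 or both colours and are described separately. The nearest genes inside the 1 h limit were TSPO at 1.01 and MIPS2 at 1.02 log2 units in the lower colour, and the nearest outside were AT1G10740 at 0.997 and AT5G22470 at 0.996. At the 6 h limit HSD1 at 0.483 and AT5G40800 at 0.481 were just inside, and COL2 at 0.525 and CYCP2;1 at 0.530 just outside.

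**Figure D2:**
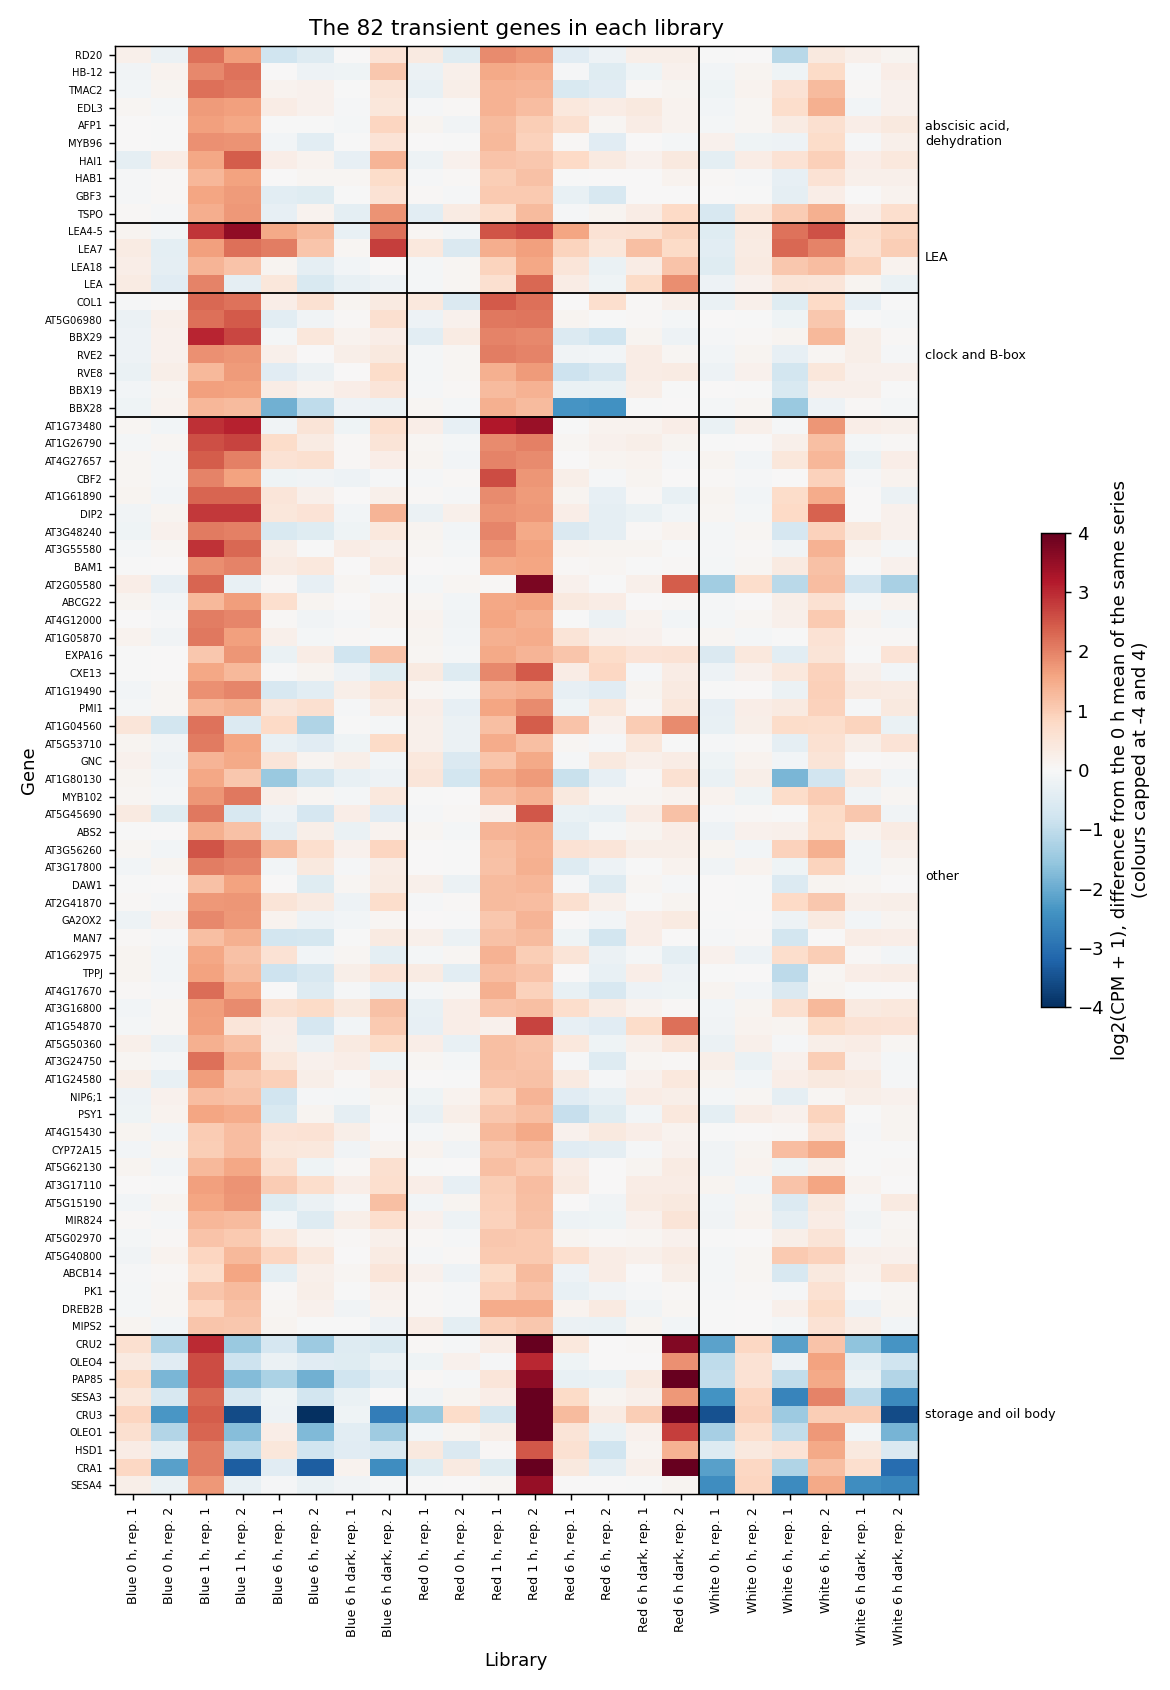
Each row is 1 of the 82 members and each column 1 of 22 libraries, coloured by log2(CPM + 1) minus the 0 h mean of the same series and capped at -4 and 4. Most rows are high in all 4 of the 1 h columns, and the 9 storage and oil-body rows at the bottom are higher in Blue 1 h replicate 1 than replicate 2 and in Red 1 h replicate 2 than replicate 1.

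In the abscisic acid and dehydration group, all 10 members were higher in both libraries at 1 h than in both at 0 h, in both colours. So were 48 of the 52 members with other or unknown functions, and 6.83% of all genes. Nothing is read from the count of 10, because the rule used the same libraries. TMAC2 (AT3G02140), which belongs to the ABI5-binding proteins that dampen the hormone's signal, had 60.1 and 56.2 CPM in blue light at 1 h, against 11.2 and 13.3 CPM at 0 h. In red light it had 41.3 and 39.6 CPM at 1 h, against 12.0 and 17.96 CPM at 0 h. The 1 h libraries were thus 4.74-fold above 0 h in blue and 2.70-fold in red by the group means, and the groups did not overlap. HAI1 (AT5G59220), a clade A protein phosphatase, had 78.3 and 146 CPM at 1 h of blue light, against 20.2 and 32.5 CPM at 0 h, and 78.2 and 75.6 CPM at 1 h of red light, against 30.4 and 39.8 CPM at 0 h. HAB1, another phosphatase of that clade, had 169 and 205 CPM at 1 h of blue light, against 64.4 and 69.0 CPM at 0 h. AFP1, a second ABI5-binding protein, had 80.9 and 75.2 CPM at 1 h of blue light, against 25.2 and 25.1 CPM at 0 h. HAI1, HAB1 and AFP1, negative regulators of the hormone's signal, were named after their values were seen, as were GBF3, HB-12 and MYB96.

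The group also holds transcription factors and a drought marker. GBF3, a bZIP factor that binds G-boxes, had 238 and 257 CPM at 1 h of blue light, against 76.8 and 81.2 CPM at 0 h. HB-12, a homeodomain factor induced by drought, had 93.9 and 111 CPM at 1 h of blue light, against 21.6 and 26.4 CPM at 0 h. MYB96, an activator of cuticular wax genes, had 99.3 and 98.3 CPM at 1 h of blue light, against 27.8 and 26.9 CPM at 0 h. RD20, a calcium-binding caleosin of lipid droplets and a classic drought marker, had 130 and 89.7 CPM at 1 h of blue light, against 31.9 and 23.5 CPM at 0 h. In each of these 4 genes every 1 h library lay above every 0 h library. RD20 was below darkness at 6 h in both colours, with 15.49 and 19.1 CPM in Blue 6 h, against 27.9 and 40.6 CPM in Blue 6 h dark, and 10.6 and 12.7 CPM in Red 6 h, against 17.63 and 17.5 CPM in Red 6 h dark.

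A list of 31 abscisic acid genes, drawn up after the values were seen, gives the surroundings of these 10. Of the 31, 12 were at least 1 log2 unit up at 1 h in both colours, where 1.17% of all genes were, and 10 of the 12 were members. Nothing is read from this share, because the later list holds all 10 members and the rule used the same 1 h libraries. LTI78, the drought and cold marker also known as RD29A, was up by 2.39 log2 units in blue and 1.98 in red but stayed 0.861 and 1.26 above darkness at 6 h. RD26, a NAC factor, stayed 0.618 above darkness in blue. The phosphatases ABI1 and ABI2 were below the 1 h limit, at 0.864 and 0.734 in blue and at 0.625 and 0.617 in red. ABF1, a bZIP factor, was -0.189 in blue and 0.0818 in red.

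Of the 4 LEA members, LEA4-5, LEA7 and LEA18 were higher in all 1 h libraries than at 0 h. LEA4-5 (AT5G06760) had 72.9 and 116 CPM at 1 h of blue light, against 9.76 and 8.39 CPM at 0 h, and 45.4 and 51.0 CPM at 1 h of red light, against 7.71 and 6.62 CPM at 0 h. The difference of 3.24 log2 units was the largest of all members in blue. Its 6 h libraries did not return to the 0 h level, with 27.9 and 23.3 CPM in Blue 6 h and 23.2 and 11.1 CPM in Red 6 h. Both Red 6 h dark libraries, at 11.3 and 14.2 CPM, were also above both Red 0 h libraries and overlapped with Red 6 h. LEA4-5 met the 6 h condition in blue because Blue 6 h dark replicate 2 was also high, at 45.3 CPM, against 7.15 CPM in replicate 1.

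All 7 clock and B-box members had both 1 h libraries above both 0 h libraries in both colours. Of all genes, 6.83% did. Nothing is read from the count of 7, because the rule used the same libraries. The 7 members differed in what followed. RVE2 (AT5G37260), a MYB-like factor of the morning clock family, had 415 and 399 CPM at 1 h of blue light, against 100 and 131 CPM at 0 h. In red light it had 502 and 480 CPM at 1 h, against 113 and 127 CPM at 0 h. After 6 h it had 134 and 116 CPM in Blue 6 h, against 137 and 153 CPM in Blue 6 h dark, and 108 and 111 CPM in Red 6 h, against 149 and 126 CPM in Red 6 h dark. Both 6 h light libraries lay below both dark libraries in each colour. RVE8, a related activator of evening genes, had 50.5 and 67.2 CPM at 1 h of blue light, against 16.2 and 23.4 CPM at 0 h. LNK4 (AT5G06980 in the table), which belongs to the LNK coactivators that work with such MYB factors, had 80.0 and 94.7 CPM at 1 h of blue light, against 13.9 and 19.1 CPM at 0 h.

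BBX28 (AT4G27310), a B-box protein that restrains the light response factor HY5, had 6 h levels below darkness in both colours. It had 152 and 144 CPM at 1 h of blue light, against 53.0 and 65.9 CPM at 0 h, and 158 and 141 CPM at 1 h of red light, against 61.5 and 55.2 CPM at 0 h. After 6 h it had 15.1 and 29.1 CPM in Blue 6 h, against 51.7 and 50.5 CPM in Blue 6 h dark, and 10.5 and 10.09 CPM in Red 6 h, against 57.8 and 58.5 CPM in Red 6 h dark. The 6 h light and dark libraries did not overlap in either colour. BBX29, a further B-box protein, had 33.1 and 24.99 CPM at 1 h of blue light and 2.86 and 4.68 CPM at 6 h, against 2.55 and 3.66 CPM at 0 h, so its 6 h and 0 h libraries overlapped. COL1, a CONSTANS-like B-box protein, had 27.98 and 25.9 CPM at 1 h of blue light and 6.18 and 8.08 CPM at 6 h, against 4.74 and 5.10 CPM at 0 h. Both 6 h libraries were above both 0 h libraries. So were both Blue 6 h dark libraries, at 5.36 and 6.52 CPM, which overlapped with Blue 6 h. BBX19 had 20.6 and 19.7 CPM at 1 h of blue light, against 5.36 and 6.37 CPM at 0 h.

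Lists of related genes give the surroundings of these members. Of 18 clock genes, 7 were up at 1 h in both colours, where 1.17% of all genes were, and 3 of these were members. Of 29 light signalling and B-box genes, 15 were up and 3 were members. Genes that were up but are no members exceeded the 6 h limit in 1 or both colours or were among the 10 loci left out by name. The 16 photosystem genes had 8 up, the 12 flavonoid genes 6 and the 10 heat shock genes 4, and none of these 3 lists held a member. None of the 13 WRKY factors, 11 zinc finger stress factors, 11 touch and calcium genes, 9 MAP kinase and deadenylase genes or 10 type-A response regulators was up in both colours, and 1 of 17 jasmonate genes was, without being a member. CBF2, a cold-response factor that binds CCGAC, was the member among 21 AP2/ERF genes, with 8.18 and 6.15 CPM at 1 h of blue light, against 1.46 and 1.22 CPM at 0 h. GA2OX2, which inactivates gibberellins, was the member among 22 gibberellin and auxin genes, with 36.3 and 31.7 CPM at 1 h of blue light, against 7.56 and 9.96 CPM at 0 h.

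On the log2(CPM + 1) scale of the rule, AT1G73480 had the highest value of the smaller of its 2 colour differences. As a ratio of mean CPM, AT1G26790 (26.3-fold in blue and 29.1-fold in red) and AT3G55580 (20.2-fold and 15.48-fold), named after their values were seen, were higher. AT1G73480, annotated as an alpha/beta-hydrolase, had 247 and 277 CPM at 1 h of blue light, against 33.9 and 29.7 CPM at 0 h, an 8.26-fold difference of the means. In red light it had 293 and 353 CPM at 1 h, against 37.4 and 24.7 CPM at 0 h, a 10.4-fold difference. At 6 h it had 28.9 and 45.4 CPM in Blue 6 h, against 27.8 and 50.9 CPM in Blue 6 h dark, so the groups overlapped. In Red 6 h it had 30.7 and 34.0 CPM, against 34.04 and 37.5 CPM in Red 6 h dark. AT1G61890, a MATE-type efflux carrier, had 352 and 354 CPM at 1 h of blue light, against 74.3 and 63.6 CPM at 0 h. DIP2 (AT5G03210), annotated as an E3 ubiquitin ligase, had 39.3 and 39.7 CPM at 1 h of blue light, against 4.20 and 5.20 CPM at 0 h. AT4G27657, an uncharacterized protein, had 11.9 and 8.71 CPM at 1 h of blue light, against 1.51 and 1.27 CPM at 0 h.

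Among further members, named after their values were seen, are BAM1, a starch-degrading beta-amylase of plastids, PMI1, which is needed for chloroplast movement, and GNC, a GATA factor that promotes greening. BAM1 had 328 and 354 CPM at 1 h of blue light, against 88.2 and 90.5 CPM at 0 h. PMI1 had 175 and 188 CPM at 1 h of blue light, against 65.2 and 72.9 CPM at 0 h. GNC had 71.1 and 78.3 CPM at 1 h of blue light, against 30.8 and 23.1 CPM at 0 h.

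MIR824, whose mature products include a regulator of the MADS-box gene AGL16, had 12.3 and 11.8 CPM at 1 h of blue light, against 4.50 and 4.13 CPM at 0 h, and 8.86 and 10.9 CPM at 1 h of red light, against 4.94 and 3.53 CPM at 0 h. The counts are of its locus and not of the mature forms, which are shown to identify the microRNA. In TAIR10.1 they lie at chr4:12625128-12625148 and chr4:12625721-12625741 on the plus strand, given here as DNA with the seed, bases 2 to 8, in capitals.
ath-miR824-5p: tAGACCATttgtgagaaggga
ath-miR824-3p: cCTTCTCAtcgatggtctaga

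**Figure D3:**
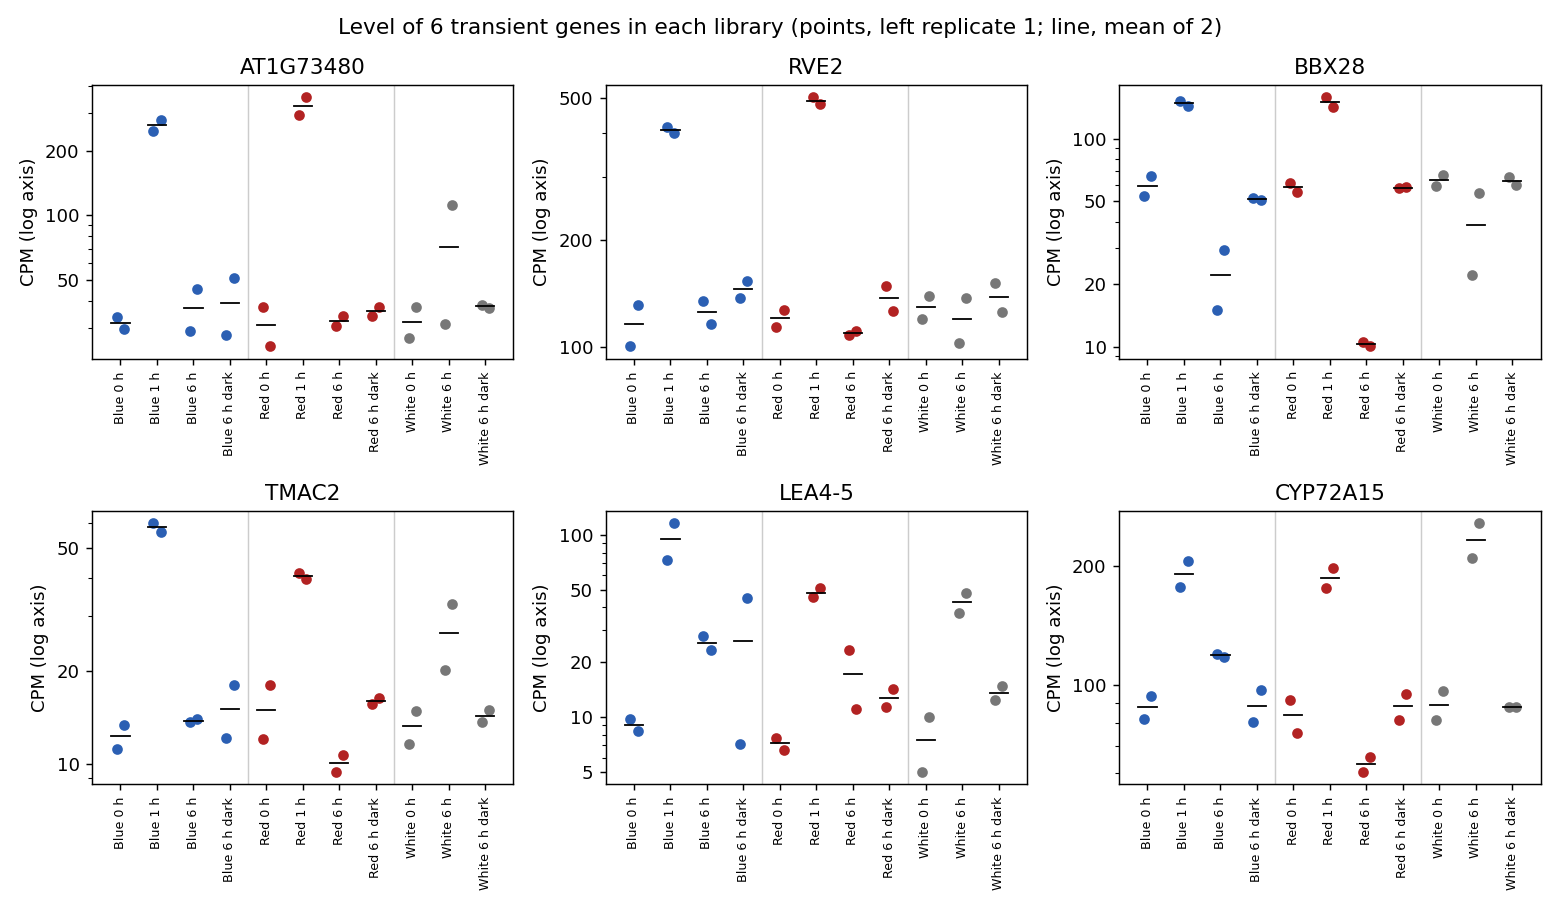
CPM on a log axis of 6 members in the 11 groups, with 1 point per library (replicate 1 left) and a line at the mean of 2. After 6 h of red light AT1G73480, RVE2, BBX28, TMAC2 and CYP72A15 lie below both dark libraries. The gap is widest for BBX28, at 10.5 and 10.09 CPM. It is narrowest for AT1G73480, where the nearest libraries are at 34.03 CPM in Red 6 h and 34.04 CPM in Red 6 h dark. CYP72A15 is at 210 and 257 CPM in White 6 h.

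The 9 storage and oil-body members and 5 others were not above 0 h in both 1 h libraries of both colours. Of these 14, 8 had both Red 1 h libraries above both Red 0 h libraries (5 of the 9 storage and oil-body genes), 1 had this in blue only, and 5 in neither colour. All 14 were higher in replicate 1 than replicate 2 of Blue 1 h and higher in replicate 2 than replicate 1 of Red 1 h. The same 14 were higher in replicate 2 of Red 6 h dark and of White 0 h and in replicate 1 of White 6 h dark, which are dark libraries. CRU3 (AT4G28520), a 12S globulin, had 139 and 1.18 CPM at 1 h of blue light, against 45.9 and 4.18 CPM at 0 h. In red light it had 4.82 and 395 CPM at 1 h, against 2.29 and 14.7 CPM at 0 h, and 17.7 and 301 CPM in Red 6 h dark. For CRU3 the 1 h and 0 h libraries overlapped in both colours.

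The other reserve genes followed. CRA1, also a 12S globulin, had 133 and 2.28 CPM at 1 h of blue light, against 56.7 and 6.17 CPM at 0 h, and 9.20 and 257 CPM at 1 h of red light, against 9.18 and 17.57 CPM at 0 h. SESA3, a 2S albumin, had 0.343 and 66.1 CPM at 1 h of red light, against 0.0241 and 0.218 CPM at 0 h, and its difference of 4.93 log2 units was the largest of all members in red. CRU2 had 21.4 and 0.0237 CPM at 1 h of blue light, against 3.48 and 0.224 CPM at 0 h. Summed over the 9 genes, the level was 390 and 6.39 CPM in Blue 1 h, against 129 and 15.6 CPM in Blue 0 h, and 20.0 and 836 CPM in Red 1 h, against 16.5 and 35.9 CPM in Red 0 h. It was 641 CPM in Red 6 h dark replicate 2, which received no light.

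SESA1, SESA2 and OLEO2, seed reserve genes that are no members, moved with them: they summed to 6.70 and 55.4 CPM in Red 1 h, against 4.67 and 4.86 CPM in Red 0 h. Heat shock genes were also higher in Red 1 h replicate 2, at 1825 CPM summed over the list, than in replicate 1, at 752 CPM, but in Blue 1 h they were at 431 CPM in replicate 1 and 624 CPM in replicate 2. The part of seed tissue in these values was not tested. Sequences of the albumin, globulin and HSD1 genes were not compared with those of their relatives. How reads with several positions were counted is not given in the sources used here, so counts of single genes in such families are uncertain. Without Blue 1 h replicate 1 and Red 1 h replicate 2 together, a setting added after seeing the data, 61 genes met the rule, of which 58 were members, and all 9 storage and oil-body genes were among the 24 lost.

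**Figure D4:**
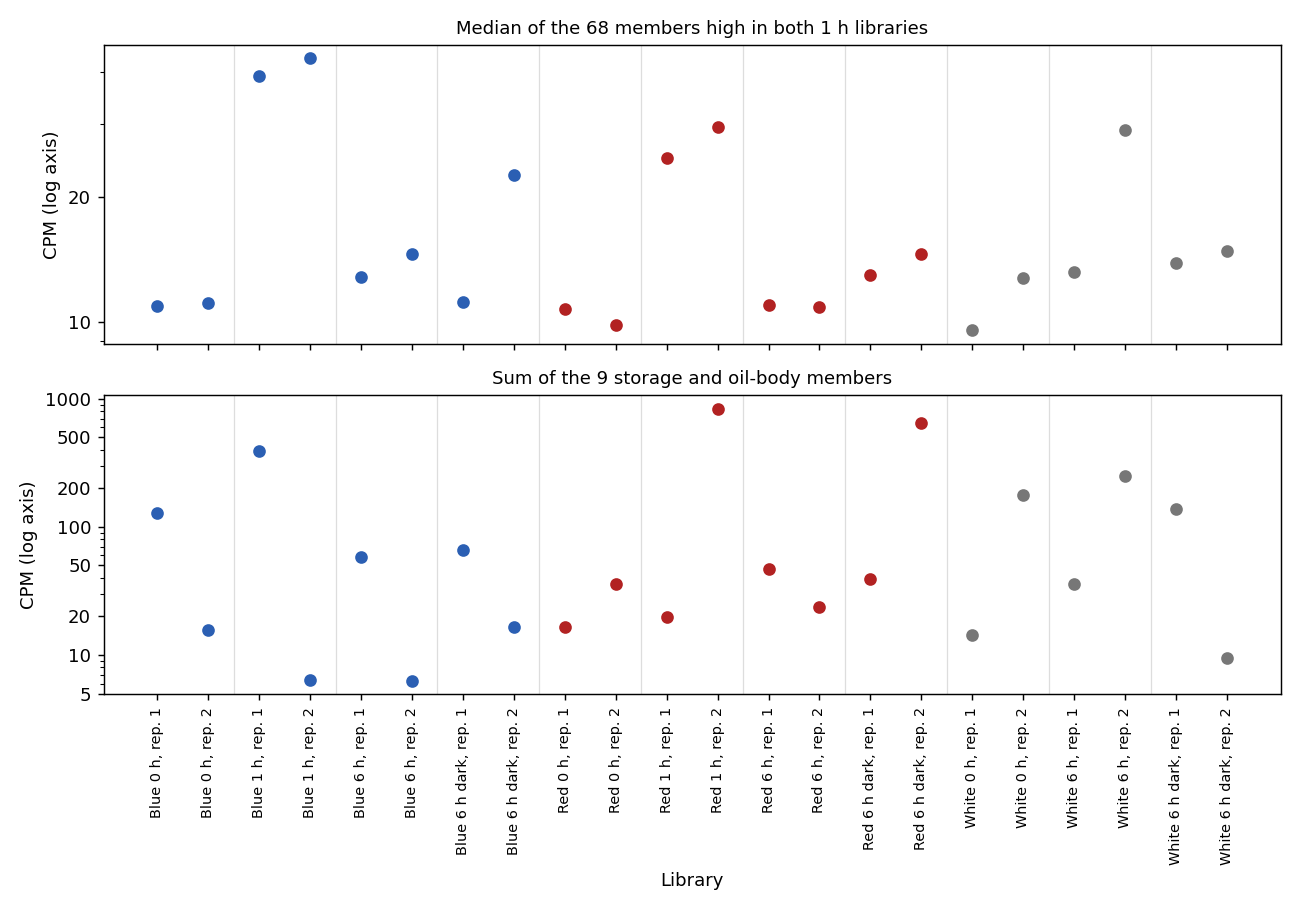
For each of 22 libraries, the median CPM of the 68 members that were high in both 1 h libraries of both colours (top) and the summed CPM of the 9 storage and oil-body members (bottom), on log axes. The top panel is highest in the 4 libraries at 1 h and in White 6 h replicate 2, at 29.1 CPM, and the bottom panel is highest in Red 1 h replicate 2, at 836 CPM, and Red 6 h dark replicate 2, at 641 CPM.

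After 6 h of blue or red light the members were below or near their dark controls, as the rule required. The median difference from 6 h dark was -0.07 in blue and -0.24 in red, and 21 members in blue and 27 in red lay more than 0.5 below darkness, where 15.3% and 9.38% of the 23011 genes that passed the filter on low counts did. Both 6 h libraries were below both dark libraries for 19 members in blue (40.5% of those genes) and for 33 in red (37.6% of those genes). Nothing is read from these shares, since the rule used the same libraries. Blue 6 h dark replicate 2 stood apart among the dark libraries. The 68 members that were high in both 1 h libraries had a median of 22.6 CPM in it and of 11.2 CPM in replicate 1, and 58 of the 68 were higher in replicate 2. The 10 abscisic acid and dehydration members had a median of 49.0 CPM in replicate 2 and 22.4 CPM in replicate 1. Without that library 70 genes met the rule and 13 members were lost, among them LEA4-5, LEA7, HAI1, DIP2 and CYP72A15, which are named because of this loss.

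White light, which the rule did not use, asks whether the same genes were back at the dark level after 6 h. The edgeR quasi-likelihood test over all 23011 genes that passed the filter on low counts called 21 of 82 members higher in White 6 h than in White 6 h dark at an adjusted p under 0.05 (25.6%, against 23.2% of all genes tested) and 1 lower (18.4% of all genes tested). With all libraries the share called higher is close to the background. All 82 members passed the filter, and the median log2 change of the members was 0.63, against 0.01 over all genes tested. By group means, 38 of 82 members were more than 0.5 log2 units above darkness, against 13.1% of the genes tested. Another 4 were more than 0.5 below, for which no share over the genes tested was counted. Of the 251 sustained genes, 249 were more than 0.5 above darkness in white light, with a median of 2.17, against 0.46 for the members.

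CYP72A15 (AT3G14690), a cytochrome P450 that was 2.18-fold up at 1 h of blue and 2.23-fold up at 1 h of red light, had the smallest p. It had 210 and 257 CPM in White 6 h, against 88.2 and 88.1 CPM in White 6 h dark, and rose by a log2 change of 1.53 (SE 0.14, adjusted p = 2.22e-06, edgeR). The pseudogene AT3G17110 rose by 1.48 (SE 0.20, adjusted p = 5.80e-05), with 30.5 and 41.2 CPM in White 6 h, against 14.7 and 13.3 CPM in White 6 h dark. The efflux carrier AT1G61890 rose by 1.40 (SE 0.21, adjusted p = 1.08e-04), with 119 and 199 CPM, against 71.4 and 60.1 CPM in darkness. In each of these genes both White 6 h libraries lay above both dark libraries.

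MYB102, a MYB factor, rose by 1.38 (SE 0.26, adjusted p = 6.82e-04), with 3.40 and 4.27 CPM in White 6 h, against 1.37 and 1.81 CPM in White 6 h dark. EDL3, an F-box protein of abscisic acid responses, rose by 2.15 (SE 0.41, adjusted p = 7.92e-04), with 1.44 and 2.98 CPM, against 0.371 and 0.676 CPM in darkness. AT3G56260, an uncharacterized protein, rose by 1.4975 on the log2 scale (SE 0.28, adjusted p = 7.30e-04), with 6.22 and 9.30 CPM in White 6 h, against 2.57 and 3.36 CPM in White 6 h dark. AT1G80130, a tetratricopeptide repeat protein, was the member that fell, by 1.37 on the log2 scale (SE 0.47, adjusted p = 0.029), to 2.41 and 6.16 CPM in White 6 h, against 14.1 and 10.3 CPM in White 6 h dark. It was also lower at 6 h in both other colours, by group means.

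By role, 2 of the 10 abscisic acid and dehydration members rose in white light, EDL3 and TMAC2, where 23.2% of all genes tested rose and 18.4% fell. TMAC2 rose by 1.01 (SE 0.24, adjusted p = 0.00328) with 20.1 and 32.8 CPM in White 6 h, against 13.6 and 14.9 CPM in darkness. TMAC2 was not called without White 6 h replicate 2 (0.61, adjusted p = 0.0676). Of the 4 LEA members 1 rose, LEA4-5, by 1.78 (SE 0.58, adjusted p = 0.0232). That call was lost when any 1 of the 4 libraries was left out, with adjusted p of 0.0506 and 0.0916 without White 6 h replicates 1 and 2, and 0.128 and 0.086 without White 6 h dark replicates 1 and 2. Of the 22 members called in either direction, 9 were also called without each of these 4 libraries in turn, among them CYP72A15, AT3G17110, AT1G61890, MYB102, EDL3 and AT3G56260. The share over all genes tested was not counted, so nothing is read from this count. None of the 7 clock and B-box members passed in the edgeR test with all libraries, with a median log2 change of -0.08: RVE2 was at -0.08 (adjusted p = 0.699), RVE8 at -0.09 (adjusted p = 0.843) and BBX28 at -0.58 (adjusted p = 0.159). LNK4 (AT5G06980) was at 0.78 (adjusted p = 0.0511) and BBX29 at 0.95 (adjusted p = 0.0655), and DESeq2 called both higher (adjusted p = 0.0313 and 0.0414). Without White 6 h replicate 1 edgeR called LNK4, BBX29 and COL1 higher, and without replicate 2 it called BBX28, BBX19 and RVE8 lower. None of the 9 storage and oil-body members passed, with a median log2 change of 2.29, and their White 6 h libraries differed widely. SESA4, a 2S albumin, was called higher by DESeq2 (adjusted p = 0.00848) and by edgeR without White 6 h replicate 1 (adjusted p = 0.0384). CRU3 had 12.0 and 68.8 CPM, against 69.7 and 1.95 CPM in darkness. The other 52 members had 18 higher and 1 lower. In the lists, 9 of 18 clock genes rose and 1 fell in white light, and 17 of 29 light signalling and B-box genes rose and 6 fell. Of the 31 abscisic acid genes 9 rose and 2 fell. These counts by role and by list stand against 23.2% of all genes tested that rose and 18.4% that fell. Of the 21 members that rose, 7 had the abscisic acid response element in their promoter, against 29 of all 82.

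The White 6 h libraries differed from each other for these genes. Replicate 2 was higher than replicate 1 for 78 of 82 members (95.1%, against 54% of the genes tested). Replicate 2 lay above both dark libraries for 69 members (84.1%, against 36.7% of the genes tested) and below both for 5 (6.1%, against 51.7%). Replicate 1 lay above both for 29 members (35.4%, against 37.3%) and below both for 35 (42.7%, against 51.9%). The members' median difference from the dark mean was 0.70 log2 units in replicate 2 and -0.07 in replicate 1. AT1G73480 shows this, with 31.3 and 112 CPM in White 6 h, against 38.4 and 37.2 CPM in White 6 h dark. Heat shock genes summed to 640 CPM in replicate 1 and 1636 CPM in replicate 2, and their part in the result was not tested. Without White 6 h replicate 2 the test called 10 members higher (12.2%, against 18.3% of the genes tested) and 9 lower (11%, against 15.7%), and all 10 were among the 21. Without White 6 h replicate 1 it called 34 higher (41.5%, against 15.4% of the genes tested), of which 20 were among the 21, and 0 lower (against 11.5%). The share of members called higher thus lay below the background without replicate 2 and above it without replicate 1. BBX28 fell by 1.39 (adjusted p = 0.00217) and RD20 by 1.24 (adjusted p = 0.0122) without replicate 2, and were not called with it. CYP72A15 was called without either library, at 1.37 (adjusted p = 4.71e-05) and 1.65 (adjusted p = 1.16e-05). Without White 6 h dark replicate 1 the test called 13 members higher (15.9%, against 15.5% of the genes tested) and 0 lower (against 13.4%), so AT1G80130 was not called without that library or without White 6 h replicate 1.

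**Figure D5:**
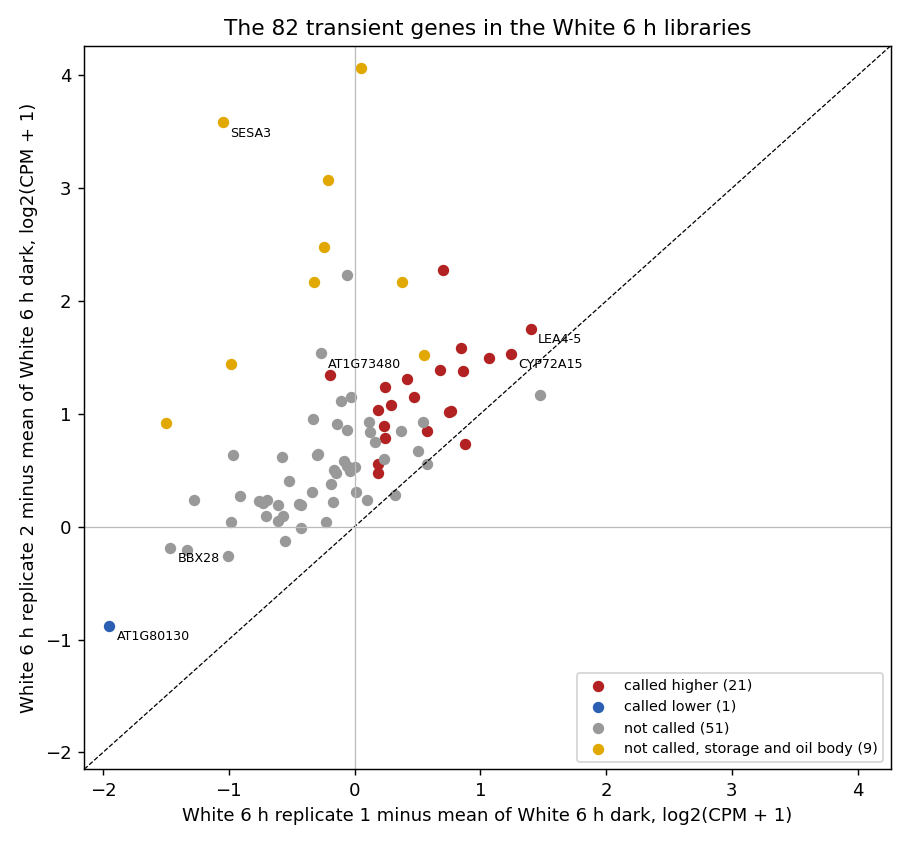
Difference of each member from the White 6 h dark mean, in log2(CPM + 1), in White 6 h replicate 1 (horizontal) and replicate 2 (vertical), with the dashed line at equality and colours for the 21 members called higher, the 1 called lower, the storage and oil-body members and the others not called. All but 4 of the 82 points lie above the line, and most storage and oil-body genes lie far above it.

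Darkness itself served as a control for the passing of time, since seedlings kept dark for 6 h were also 6 h older. No member was called between White 6 h dark and White 0 h, where 0% of all 23011 genes were called higher and 0% lower by edgeR. At an unadjusted p under 0.05 there were 185 higher and 107 lower genes over the whole table, and among the members 0 higher and 1 lower. DESeq2 also called 0 genes. The members' median log2 change was 0.06, against 0.00 over all genes. By group means in log2(CPM + 1), 5 members were more than 0.5 above White 0 h, as were 0.345% of all genes. Another 7 were more than 0.5 below. The rule used the blue and red dark libraries, where the members' medians were 0.17 and 0.19. There 11 members in blue (0.208% of all genes) and 18 in red (0.455%) were more than 0.5 above 0 h. More than 0.5 below were 6 and 0. These blue and red differences were not tested. LEA4-5 had 12.4 and 14.8 CPM in White 6 h dark, against 5.01 and 9.97 CPM in White 0 h.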

How the data were processed

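The authors' table holds deposited counts of reads per gene, whole numbers that were not normalized. TAIR 10 is the build that the submitters' processing notes name. Aligner, counting program and strand setting: not given in the sources used here. Names, gene starts and sequences came from the TAIR10.1 RefSeq annotation by locus tag (32835 of 33602 genes matched). The rule used CPM on column totals. White libraries were tested by quasi-likelihood F tests (edgeR 4.0.16, R 4.3.3) with TMM, filterByExpr (minimum count 10), 11 group means over 22 libraries, 11 residual degrees of freedom, and Benjamini-Hochberg adjustment over 23011 genes. The standard error is the log2 change divided by the root of F. Scripts were tested on simulated data. The members and all lists were chosen with earlier results of these data known. Genes are named if they had the largest 1 h differences at 5 CPM or more, the smallest white light p, the highest levels in a list or values nearest a threshold. Other names were chosen after their values were seen. Alternatives included DESeq2 1.42.0, other scalings and filters, a replicate block and each library left out.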

Additional observations from a re-analysis of the deposited data

Results flagged for a closer look

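Of the 82 members, 6 had 6 h libraries that lay all on opposite sides of their dark libraries in 2 colours (7.32%), as did 6.55% of the 23011 genes that passed the filter on low counts, a share near that of the members. These differences were not tested, and the blue and red values were used to choose the genes. Values are differences of log2(group mean CPM + 1) between 6 h and 6 h dark. Both White 6 h libraries were above both dark libraries and both Red 6 h libraries below them for 5 genes (2.07% of all genes that passed). TMAC2 was at 0.85 in white and -0.62 in red, the dehydrin gene LEA at 0.57 and -1.33, and the peptide gene PSY1 at 0.53 and -0.87. TSPO was at 0.75 in white and -0.52 in red, and CYP72A15 at 1.40 and -0.48. CYP72A15 was also above darkness in blue, at 0.42, with red at -0.48. MIPS2, an enzyme of inositol synthesis, was at 0.17 in blue and -0.26 in red.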

How the results depend on the processing

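The number of members, 82, stayed between 61 and 99 under other scalings, pseudocounts and filters and without Blue 1 h replicate 1 and Red 1 h replicate 2 together, and between 64 and 104 without each library in turn. In White 6 h against 6 h dark, leaving out 1 library gave 10 to 34 members higher and 0 to 9 lower, and 2684 to 3667 genes lower over the whole table, against 4225. Library totals alone gave 2 members lower in place of 1 (2.44%, against 25.3% of the genes tested). They shifted the median of all genes to -0.11 log2 units. A log2 change of at least 1 left 1943 genes higher and 1539 lower over the whole table. Libraries share replicate numbers within a series, and with 2 per group they were not taken as pairs. Correlations of same-numbered deviations were 0.0478 to 0.574, and 0.124 between White 6 h and 6 h dark. With the replicate block 29 members were higher (35.4%, against 25.9% of the genes tested) and 2 lower (2.44%, against 22.4%). It called AT5G06980 (0.70, edgeR adjusted p = 0.0327) and SESA4 (7.48, edgeR adjusted p = 0.00248), which the edgeR test with all libraries and no block did not call. DESeq2, and edgeR without White 6 h replicate 1, also called both with no block. No setting changed the 0 calls between White 6 h dark and White 0 h. With 2 libraries per group, many small changes can be missed. In counts simulated for White 6 h against 6 h dark, 59% of changes of 1 log2 unit and 85% of changes of 2 were recovered.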
